A study of Mus musculus with 10 samples.

Results

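Collagen leaves the cell as a soluble precursor and becomes a fibre only after a series of enzymes has acted on it, and 10 genes of those enzymes and their helpers were followed here in mouse ventricle: Lox, Loxl1, Loxl2, Loxl3, Loxl4, Pcolce, Pcolce2, Bmp1, P4ha1 and Plod2. They were chosen by symbol, as all probes whose transcript accession maps to one of these names. All 10 were on the array, with 18 probes. Of these genes 9 were tested among 22048 genes or transcripts, and Loxl4 was too dim to test. Ventricles came from male mice that were either untreated or given aldosterone for 7 days. Aldosterone is a steroid hormone of the adrenal cortex and ligand of the mineralocorticoid receptor. The sample titles of both groups carry the label Ctrl, with the treatment named beside it. The labels give neither strain, age, dose nor route for the 5 control and 5 aldosterone hearts, each from a mouse of its own. RNA of each heart, in Cy5, was hybridised to an Agilent mouse array against a Cy3 reference mixed from liver, brain, heart, kidney and spleen. Scanner files of 9 arrays (5 control, 4 aldosterone) and a table of log2 ratios for all 10 hearts were used. The scanner files give the main values, and the table is the only source for aldosterone heart 4.

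Inside the cell, prolyl 4-hydroxylases (P4ha1 encodes a catalytic subunit) give the triple helix its stability, and the lysyl hydroxylase encoded by Plod2 modifies the telopeptide lysines from which stable crosslinks form. After secretion, the metalloprotease BMP1 removes the C-terminal propeptide of fibrillar procollagens, helped by the procollagen C-endopeptidase enhancers encoded by Pcolce and Pcolce2. The copper-dependent lysyl oxidases, encoded by Lox and Loxl1 to Loxl4, then oxidise lysines of collagen and elastin so that neighbouring molecules join. In the heart these genes are known chiefly from fibroblasts and from fibrosis, in which crosslinked collagen stiffens the wall.

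In the aldosterone group Loxl1, Loxl2, Pcolce, Pcolce2 and Bmp1 had higher mean ratios, by 0.21 to 0.55 on the log2 scale, or 1.16-fold to 1.46-fold. Loxl3, P4ha1, Plod2 and the near-background Lox differed by -0.04 to 0.05. None of the 9 tested genes passed limma's test with Benjamini-Hochberg adjustment over all genes (adjusted p = 0.304 to 1.00), and neither did any other gene in the scanner files (0% called; 1367 genes or 6.2% at an unadjusted p under 0.05). In the value table of 10 hearts, where 0.168% of all genes were called (0.15% higher and 0.0181% lower), 0 of the 9 were called (adjusted p = 0.203 to 0.989). At an unadjusted p under 0.05, 5 of the 9 were higher and 0 lower in the scanner files, against 4.16% of all genes higher and 2.04% lower. In the table it was 4 higher and 0 lower, against 4.87% and 3.22%, or 8.09% in either direction. The median difference of the 9 was 0.21 in the scanner files and 0.15 in the table, where the medians of all genes were 0.00494 and -0.000372.

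RefSeq windows (GRCm38.p6) were at hand for Pcolce, Pcolce2, P4ha1 and Loxl4, and the 250 bases before the annotated start are shown for both enhancer genes, which had higher values with aldosterone, and for P4ha1, which did not. Capitals mark AGAACA, a half-site of corticosteroid receptors, and ACGTG and GCGTG, cores of the hypoxia response element, searched on both strands, with no marked match overlapping another. The windows are chr5:137611405-137611654 on the minus strand for Pcolce, chr9:95637378-95637627 on the plus strand for Pcolce2 and chr10:59323046-59323295 on the plus strand for P4ha1.
Pcolce: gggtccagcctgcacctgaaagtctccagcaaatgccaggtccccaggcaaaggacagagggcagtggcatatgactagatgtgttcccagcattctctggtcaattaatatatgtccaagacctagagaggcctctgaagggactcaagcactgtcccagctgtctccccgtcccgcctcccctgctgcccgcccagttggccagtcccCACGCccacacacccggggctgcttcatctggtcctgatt
Pcolce2: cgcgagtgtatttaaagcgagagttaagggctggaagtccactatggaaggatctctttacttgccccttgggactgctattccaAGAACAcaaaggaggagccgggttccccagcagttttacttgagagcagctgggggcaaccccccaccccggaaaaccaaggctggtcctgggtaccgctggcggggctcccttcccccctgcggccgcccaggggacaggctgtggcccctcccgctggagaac
P4ha1: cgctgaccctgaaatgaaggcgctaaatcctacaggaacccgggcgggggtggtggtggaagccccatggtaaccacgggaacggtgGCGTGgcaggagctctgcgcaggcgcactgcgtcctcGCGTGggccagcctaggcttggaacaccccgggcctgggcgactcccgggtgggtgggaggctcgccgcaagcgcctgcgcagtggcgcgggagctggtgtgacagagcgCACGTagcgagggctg
The Pcolce2 window held 1 AGAACA, as did at least 1 in 16.2% of 27025 promoter windows of the same length, and those of Pcolce and P4ha1 held 0. P4ha1, a gene known to be induced by hypoxia, had 2 matches to GCGTG and 1 to ACGTG, motifs found in 28.2% and 16.6% of windows. Pcolce had 1 GCGTG. These matches describe the letters in the windows, and no binding was measured.

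A few facts of the whole series touch these values. On single arrays 64.4% to 71.0% of the 39429 probes stood well above background in Cy5. Each of 4 slides carried both groups, but aldosterone RNA always lay at position 2 of a slide and control RNA at position 1 or 4, and these cannot be told apart. Clustering of the arrays on all tested genes other than the 9, after centring in each group, gave 2 sets of hearts that cross the groups. Controls 1, 3 and 4 and aldosterone 3 and 5 formed one set, and controls 2 and 5 and aldosterone 1 and 2 the other, which in the value table also held aldosterone 4. The labels name no such sets. Ventricular cardiomyocyte markers were well above background for 8 of 8 genes. Atrial markers lay at -3.46 to -3.21 as a list mean of log2 ratios over all arrays.

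The probes differed widely in brightness, which sets how much each gene's ratio can show. A gene with several probes was tested at its brightest. A probe's brightness depends on its own sequence. Signals of different genes were therefore not compared with each other, only with the local background of 52.5 to 65 units. Pcolce, with a median Cy5 signal of 8710 units, Bmp1 (2540), Pcolce2 (1290), P4ha1 (1039), Loxl1 (849) and Loxl2 (834) stood far above it. Plod2 (331) and Loxl3 (148) were nearer to it but well above on 9 of 9 arrays. The tested Lox probe had signals of 66 to 82.5 units and was well above background on 2 of 5 control and 3 of 4 aldosterone arrays, and the other Lox probe on 1 array. For Loxl4, 1 probe was well above background on no array and the other on 1 aldosterone array, with signals of 61.5 to 73 units. Loxl4 was not well above background in either group as a whole and has no fold here. No probe of the 10 genes was saturated.

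**Figure D1:**
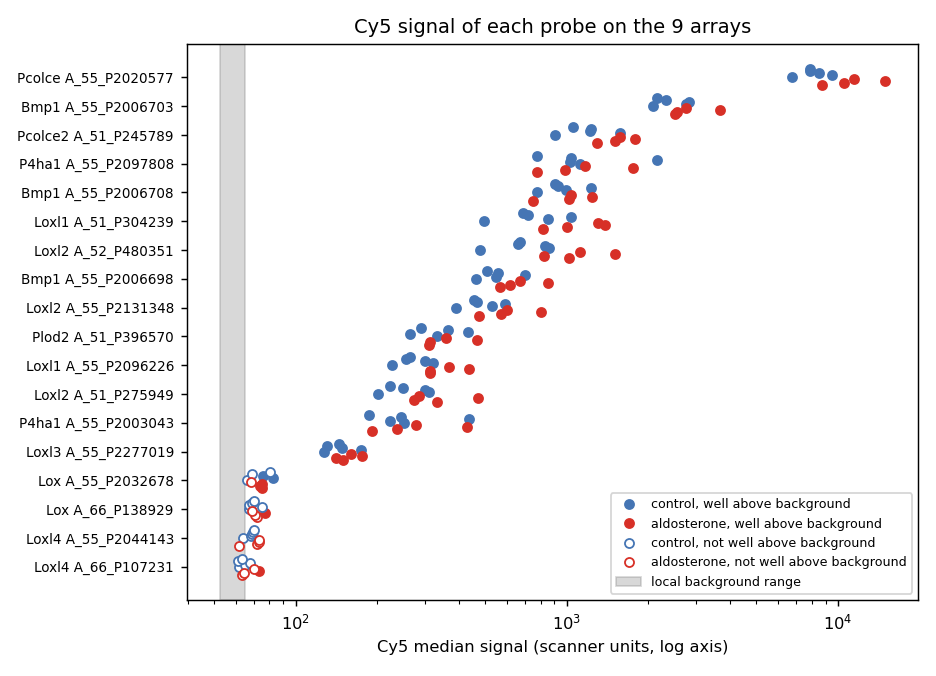
Cy5 median signal (scanner units, log axis) of the 18 probes on the 9 arrays, one row per probe, with controls in blue, aldosterone arrays in red, open circles where the spot was not well above background, a small vertical offset per array, and the range of local background in grey. The probes of Lox and Loxl4 lie next to the background, at 61.5 to 82.5 units, while the Pcolce probe lies between 6763 and 14932.

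Among the lysyl oxidases, Loxl1, whose product is known for its role in elastic fibres, had log2 ratios of -0.15, 0.43, 0.47, 0.11 and 0.27 in controls 1 to 5. In aldosterone 1, 2, 3 and 5 it had 0.68, 0.59, 0.84 and 0.98. All 4 aldosterone arrays lay above all 5 controls, as was the case for 1.46% of all genes, while 0.632% lay wholly below. The means were 0.23 ± 0.25 (SD, n = 5) and 0.77 ± 0.17 (SD, n = 4), a difference of 0.55 (SE 0.13; limma adjusted p = 0.304) or 1.46-fold, with a 95% interval of 1.20-fold to 1.78-fold. In the value table the controls had 0.42, 0.79, 0.83, 0.70 and 0.62, and aldosterone hearts 1 to 5 had 1.18, 0.94, 1.32, 0.97 and 1.38. There too the groups did not overlap, which held for 1.34% of all genes in that table (0.571% wholly below), and the difference was 0.49 (SE 0.11; limma adjusted p = 0.203). A second, dimmer Loxl1 probe gave 0.22 (SE 0.12) in the scanner files and 0.32 (SE 0.12) in the table, and with the mean of both probes the gene differed by 0.38.

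Loxl2, which crosslinks fibrillar and basement membrane collagen, gave 3 probes to compare. Its brightest probe read -0.12, 0.45, 0.19, 0.14 and 0.25 in controls 1 to 5, and 0.94, 0.30, 0.98 and 0.70 in aldosterone 1, 2, 3 and 5. Aldosterone 2 lay within the controls and the other 3 above them. The means were 0.18 ± 0.21 (SD, n = 5) and 0.73 ± 0.31 (SD, n = 4), and the difference was 0.55 (SE 0.15; limma adjusted p = 0.421). In the deposited ratios Loxl2 read 0.38, 0.87, 0.72, 0.65 and 0.59 in the controls and 1.43, 0.71, 1.46, 1.05 and 1.18 in aldosterone hearts 1 to 5, so that heart 4 lay above every control and heart 2 below the highest. The difference there was 0.52 (SE 0.15; limma adjusted p = 0.349). The other Loxl2 probes were higher too, by 0.36 (SE 0.14) and 0.26 (SE 0.07) in the scanner files, so the 3 probes agree in sign and differ in size. Without aldosterone 2 the difference of the brightest probe was 0.69, and without control 1 it was 0.48.

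The other lysyl oxidases gave no such difference at the depth of these probes. Loxl3 had controls at 0.14, 0.35, 0.18, 0.15 and 0.08 and aldosterone arrays at 0.28, 0.02, 0.16 and 0.10, so the ranges overlapped, with aldosterone 2 below every control and control 2 above every aldosterone array. Its difference was -0.04 (95% interval -0.20 to 0.13; limma adjusted p = 1.00) in the scanner files and 0.05 (-0.26 to 0.37) in the value table, and its sign turned in 7 of 26 alternatives. Lox, the founding member of the family, read -0.08, 0.10, 0.11, 0.01 and 0.12 in controls and -0.11, 0.26, 0.07 and 0.12 in aldosterone 1, 2, 3 and 5. It differed by 0.03 (95% interval -0.14 to 0.21) in the scanner files and by -0.37 (-1.25 to 0.52) in the table. Near background the offset used for the scanner files pulls ratios towards 0, while the table spreads them: there Lox read 1.79 and 1.80 in controls 2 and 5 and 0.11 to 0.49 in the other controls. A change of Lox was therefore not detectable here, and its interval does not exclude one in either direction.

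**Figure D2:**
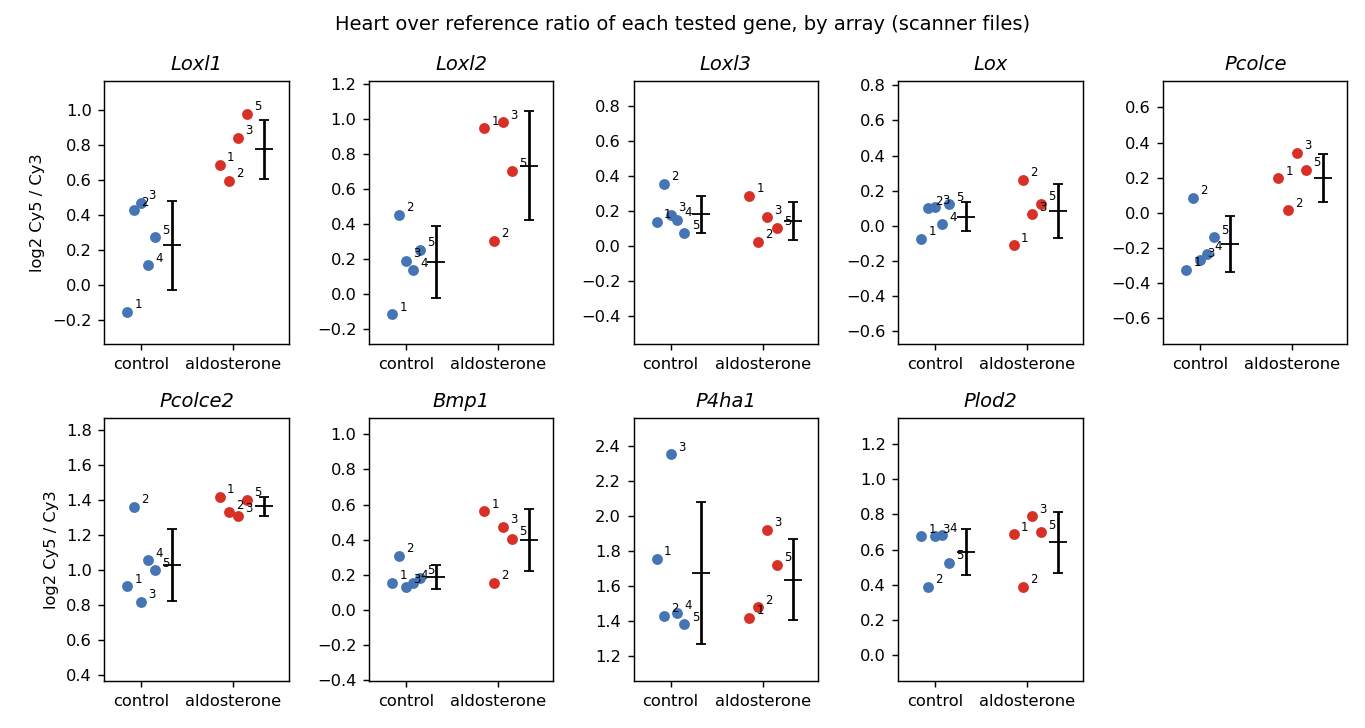
Log2 ratio of heart (Cy5) over reference (Cy3) of the 9 tested genes in the scanner files, with a point per array, numbered by replicate, controls in blue, aldosterone arrays in red, and the mean ± SD (n = 5 and n = 4) in black. Every panel spans the same range of log2 units, and Loxl1 alone has all aldosterone points (0.59 to 0.98) above all controls (-0.15 to 0.47).

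Of the procollagen processing genes, Pcolce, which encodes the main enhancer of BMP1, had log2 ratios of -0.33, 0.08, -0.27, -0.23 and -0.14 in controls 1 to 5. In aldosterone 1, 2, 3 and 5 they were 0.20, 0.01, 0.34 and 0.25. Control 2 was the 1 control above an aldosterone array. The means were -0.18 ± 0.16 (SD, n = 5) and 0.20 ± 0.14 (SD, n = 4), and the difference was 0.38 (SE 0.09; limma adjusted p = 0.401), or 1.30-fold (95% interval 1.12 to 1.50). The table, with controls at -0.27, 0.26, -0.18, -0.11 and -0.11 and aldosterone hearts at 0.35, 0.05, 0.44, 0.28 and 0.28, gave 0.36 (SE 0.11; limma adjusted p = 0.379). All 5 aldosterone hearts of the table lay above controls 1, 3, 4 and 5, and 4 of them above control 2 as well.

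Pcolce2, the second enhancer gene, was evenly high with aldosterone. It read 1.42, 1.33, 1.31 and 1.40 in aldosterone 1, 2, 3 and 5, against 0.91, 1.36, 0.82, 1.06 and 1.00 in the controls. The spread with aldosterone was 0.05 (SD, n = 4) around 1.36, and that of the controls 0.21 (SD, n = 5) around 1.03. The difference was 0.34 (SE 0.10; limma adjusted p = 0.507). Control 2 overlapped the aldosterone arrays in the scanner files. The table held 1.57, 1.79, 1.39, 1.62 and 1.55 in the controls and 1.93, 1.85, 1.86, 1.87 and 1.96 in aldosterone hearts 1 to 5. There control 2 lay just under the lowest aldosterone heart and the groups did not overlap. Of all genes in the table, 1.34% lay wholly above the controls and 0.571% wholly below. The table gave a difference of 0.31 (SE 0.07; limma adjusted p = 0.227).

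Bmp1, the protease itself, differed less and its probes did not agree. The brightest probe read 0.16, 0.31, 0.13, 0.16 and 0.18 in controls 1 to 5 and 0.56, 0.16, 0.47 and 0.41 in aldosterone 1, 2, 3 and 5, so that 3 aldosterone arrays lay above every control and 1 lay among them. The difference was 0.21 (SE 0.08; limma adjusted p = 0.736) in the scanner files and 0.15 (SE 0.07; limma adjusted p = 0.653) in the value table. In the table, aldosterone hearts 2 and 4 were both at 0.46, among controls that spanned 0.45 to 0.50. A probe assigned to a non-coding Bmp1 transcript record gave 0.26 (SE 0.07), and the last probe, to the same record as the brightest, gave -0.00349 (SE 0.05). Bmp1 is known to be spliced into several forms, and which of them each probe detects was not tested.

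The hydroxylase genes of the earlier, intracellular step had mean differences near 0, with a wide interval for P4ha1. P4ha1 read 1.75, 1.43, 2.35, 1.45 and 1.38 in the controls and 1.42, 1.48, 1.92 and 1.72 in aldosterone 1, 2, 3 and 5. The ratio of ventricle to mixed reference was thus above 0 in every heart, and control 3 stood highest. Heart RNA was always in Cy5, so dye and tissue cannot be told apart in the level of this ratio. The difference was -0.04 (95% interval -0.46 to 0.38; limma adjusted p = 1.00), and without control 3 it was 0.13. Plod2 read 0.67, 0.39, 0.68, 0.68 and 0.52 in controls 1 to 5 and 0.69, 0.39, 0.79 and 0.70 in aldosterone 1, 2, 3 and 5, with the lowest heart of each group at the same level. It differed by 0.05 (95% interval -0.15 to 0.26) in the scanner files and by -0.10 (-0.39 to 0.19) in the value table, with its groups overlapping in both. The interval of P4ha1 runs from 0.728-fold to 1.30-fold, so differences of the size seen for Pcolce and Pcolce2 lie within it.

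**Figure D3:**
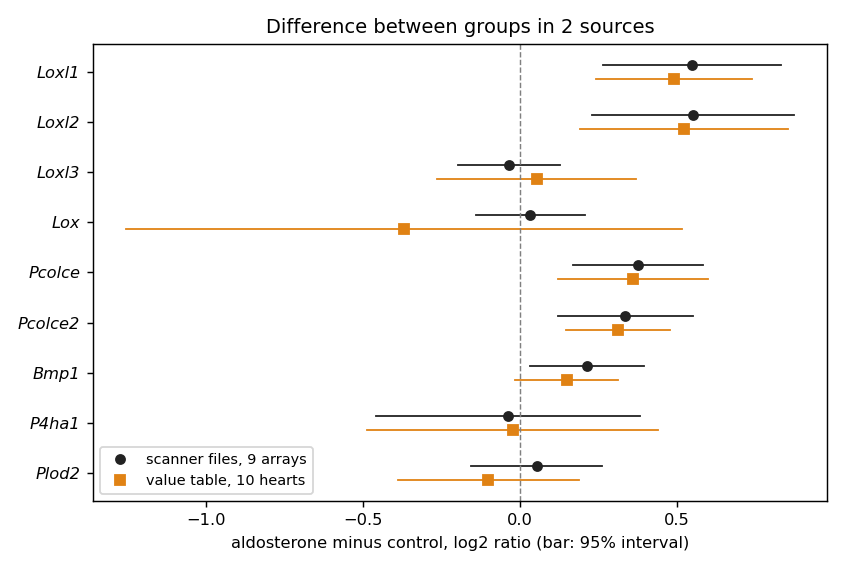
Difference of aldosterone minus control in log2 ratio for the 9 tested genes, with 95% intervals from limma, in the scanner files (black circles, 9 arrays) and in the value table (orange squares, 10 hearts). The intervals of Loxl1, Loxl2, Pcolce and Pcolce2 lie above 0 in both sources, before any adjustment for the number of genes tested, and that of Bmp1 (-0.02 to 0.31) reaches 0 in the table.

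Within slides, 5 of the 9 genes kept their sign on every slide, on the same arrays as in the main fit. The share of all genes that did so was not computed. The difference of Loxl1 was 0.54, 0.12, 0.73 and 0.71 on slides 1 to 4, and that of Loxl2 was 0.78, 0.11, 0.85 and 0.45. Pcolce gave 0.32, 0.28, 0.58 and 0.39, and Pcolce2 gave 0.28, 0.51, 0.25 and 0.40. Bmp1 gave 0.33, 0.02, 0.32 and 0.22. Slide 2, with control 3 and aldosterone 2, had the lowest value for 7 of the 9 genes: Loxl1, Loxl2, Loxl3, Pcolce, Bmp1, P4ha1 and Plod2. P4ha1 spread from -0.87 on slide 2 to 0.47 on slide 3. Slide 3 held hearts of a single set. The pairs of slides 2 and 4 mixed the sets, and control 1 was not in the set of its 2 neighbours on slide 1, so those values also carry the set.

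**Figure D4:**
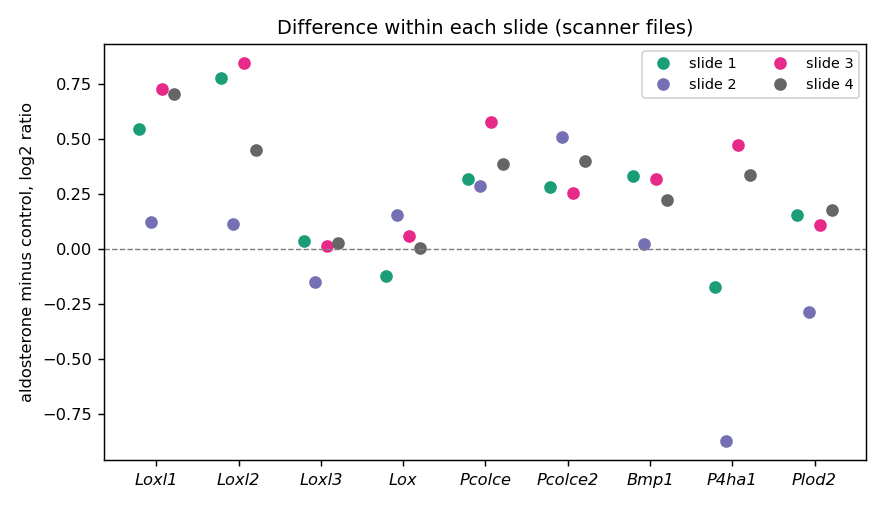
Difference of aldosterone minus control in log2 ratio within each of the 4 slides (colours) for the 9 tested genes in the scanner files; slide 1 held 2 controls, the others 1 array of each group. Loxl1, Loxl2, Pcolce, Pcolce2 and Bmp1 are above 0 on every slide, and P4ha1 ranges from -0.87 to 0.47.

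Taken by set, the same 5 genes had higher means with aldosterone in each, as did Plod2 by 0.07 and 0.08. The arrays are again those of the main fit, and the share of all genes higher in both sets was not computed. In the set with controls 1, 3 and 4 and aldosterone 3 and 5, Loxl1 differed by 0.76, Loxl2 by 0.77, Pcolce by 0.57, Pcolce2 by 0.43 and Bmp1 by 0.29. In the set with controls 2 and 5 and aldosterone 1 and 2, the values were 0.29, 0.27, 0.13, 0.19 and 0.11. Whether the sets differ in this was not tested. With the set as a block the differences were 0.55 for Loxl1, 0.54 for Loxl2, 0.37 for Pcolce, 0.32 for Pcolce2 and 0.21 for Bmp1, and none passed (limma adjusted p = 0.240 to 0.533). No heart was an outlier by Dixon's test in any of 36 groups of values, but some ranked alike across genes. Among controls, control 2 was highest for 5 of the 9 genes (Loxl2, Loxl3, Pcolce, Pcolce2 and Bmp1), and among aldosterone arrays, aldosterone 2 was lowest for 6 (Loxl1, Loxl2, Loxl3, Pcolce, Bmp1 and Plod2).

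Fibroblast markers had higher values beside these genes. All 10 of 10 listed markers were measured and had a difference above 0 (as had 52.3% of all genes), with a median of 0.21. Of them 0 passed over all genes in limma, and 5 were higher at an unadjusted p under 0.05 (4.16% of all genes) and 0 lower. The list mean ranged from 0.85 to 1.22 on control arrays and from 1.14 to 1.45 on aldosterone arrays. It was highest among controls on control 2 and lowest with aldosterone on aldosterone 2. Relative to this list mean, and with no test, the difference was 0.26 for Loxl1, 0.27 for Loxl2, 0.09 for Pcolce, 0.05 for Pcolce2 and -0.07 for Bmp1. On the same footing it was -0.25 for Lox, -0.32 for Loxl3, -0.32 for P4ha1 and -0.23 for Plod2. In bulk ventricle RNA, more fibroblasts and more RNA per fibroblast cannot be told apart, and the part of fibroblast number in these differences was not tested. Of 4 myofibroblast markers 3 were measured, at list means of 0.22 to 1.33 in controls and 0.69 to 1.59 with aldosterone. Cthrc1, the fourth, was well above background on 1 array.

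Markers of other cells went in both directions. The median difference was -0.03 for 10 endothelial markers, -0.01 for 10 smooth muscle and pericyte markers, -0.04 for 8 ventricular cardiomyocyte markers and 0.03 for 4 atrial markers. It was 0.11 for 7 macrophage markers, 0.04 for 3 epicardial, 0.23 for 5 red blood cell and -0.09 for 5 adipocyte markers, of which Plin1 was well above background on 4 arrays; in the value table the adipocyte median was -1.09 and the macrophage median 0.32. Of all genes, 52.3% had a difference above 0 in the scanner files and 49.9% in the table. All 5 red blood cell markers did in both sources, 3 of them at an unadjusted p under 0.05 (4.16% and 4.87% of all genes). None of the 5 adipocyte markers did in either source. At an unadjusted p under 0.05, 1 of them was lower in the scanner files and 3 in the table (2.04% and 3.22% of all genes). Of the 10 endothelial markers 4 were above 0 in either source. At the same threshold 2 endothelial markers were higher in the scanner files and 1 in the table (4.16% and 4.87% of all genes), and 0 lower. Of the 7 macrophage markers 6 were above 0 in the scanner files and 7 in the table, and none of these lists held a gene that passed over all genes. The red blood cell list mean lay between -3.32 and -2.31 on control arrays and between -2.37 and -1.94 on aldosterone arrays, and its part in the results was not tested.

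Among the other genes of the pathway, a joint list of lysyl oxidase substrates and fibre assembly genes had mostly higher values. Its 19 genes are those of collagens, elastic fibres, fibril-associated proteoglycans and other matrix proteins, and not each is a substrate. Lum and Dcn are also among the fibroblast markers above. Of the 19, 0 passed over all genes and 17 had a difference above 0 (as had 52.3% of all genes). At an unadjusted p under 0.05, 14 were higher (4.16% of all genes) and 0 lower. The median was 0.30 against 0.00494 for all genes. The value table gave 17 above 0 (49.9% of all genes) and a median of 0.38. There 11 were higher and 0 lower at an unadjusted p under 0.05 (4.87% and 3.22% of all genes). Col5a3, a minor fibrillar collagen chain, differed by 0.46 (SE 0.06; limma adjusted p = 0.102), the smallest adjusted p of all genes in the scanner files. Thbs1, a matrix glycoprotein that binds procollagen, differed by 0.69 (SE 0.12; limma adjusted p = 0.133). Col5a2, another chain of the same collagen, differed by 0.28 (SE 0.08), and Lum, the fibril-regulating proteoglycan lumican, by 0.52 (SE 0.15). The elastin gene Eln, itself a substrate and named here after its value was seen, was at -0.00505 (SE 0.08).

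Proteinases and enhancers outside the 10 genes gave 7 of 11 differences above 0 (52.3% of all genes), a median of 0.12 and 0 calls. At an unadjusted p under 0.05, 4 were higher and 0 lower (4.16% and 2.04% of all genes). The value table also gave 7 above 0 (49.9% of all genes), and the median there was 0.04. At that threshold 1 was higher and 1 lower in the table (4.87% and 3.22% of all genes). Adamts2, the procollagen N-proteinase, differed by 0.42 (SE 0.13; limma adjusted p = 0.577) and by 0.42 (SE 0.12) in the value table. Frzb and Sfrp2, secreted frizzled-related proteins of which the second is known to bind the BMP1 family, differed by 0.43 (SE 0.15) and 0.26 (SE 0.10), and Postn, the matricellular periostin, by 0.64 (SE 0.29). Tll1, a proteinase of the BMP1 family that is named here after its value was seen, differed by -0.18 (SE 0.09) and in the value table by -0.25 (SE 0.09; limma adjusted p = 0.525). Among 4 further genes, not all of them known crosslinking enzymes, Pxdn, a peroxidase that crosslinks collagen IV, differed by 0.37 (SE 0.13; limma adjusted p = 0.684). Tgm2, a transglutaminase, differed by -0.03 (SE 0.09), Qsox1 by 0.17 (SE 0.18) and Hpse2 by -0.00879 (SE 0.07).

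The remaining hydroxylases, like P4ha1 and Plod2, lay near 0. Of 13 hydroxylase and glycosyltransferase genes 7 had a difference above 0, near the 52.3% of all genes. The median was 0.03 and the range -0.12 to 0.16, with 0 called. Ppib, the cyclophilin of the prolyl 3-hydroxylation complex, differed by 0.16 (SE 0.06), Colgalt1, a collagen galactosyltransferase, by 0.14 (SE 0.08), Crtap by -0.10 (SE 0.07) and P3h2 by 0.07 (SE 0.06). Of 14 chaperone and secretion genes 12 were above 0 (52.3% of all genes), with a median of 0.09 and 0 called. Sec24d, a coat protein of the vesicles that export procollagen, differed by 0.32 (SE 0.10), Fkbp7 by 0.21 (SE 0.11), the collagen chaperone gene Serpinh1 by 0.23 (SE 0.12) and Fkbp14 by 0.19 (SE 0.10). Of 10 known inducers 8 were above 0 (52.3% of all genes) with a median of 0.13 and 0 called. Snai2, Hif1a, Lgals3 and Snai1 differed by 0.15 (SE 0.07), 0.16 (SE 0.07), 0.32 (SE 0.18) and 0.13 (SE 0.09). Agtr1a and Tgfb1, named here after their values were seen, lay below 0, at -0.15 (SE 0.20) and -0.03 (SE 0.11). They were below 0 in the value table too, at -0.23 (SE 0.21) and -0.00860 (SE 0.12). No inducer had an unadjusted p under 0.05 in the scanner files, against 1 higher and 0 lower in the value table.

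**Figure D5:**
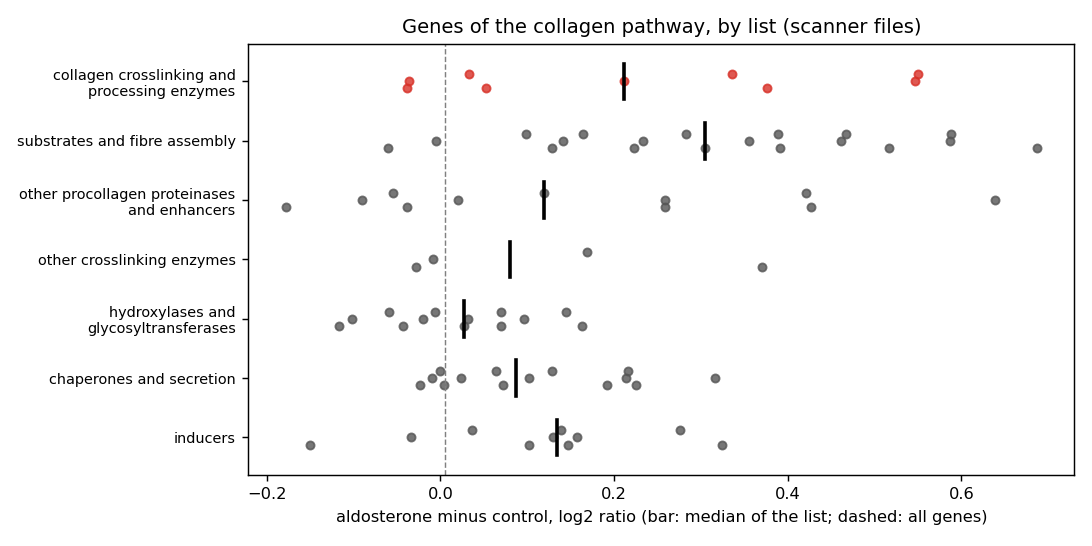
Difference of aldosterone minus control in log2 ratio (scanner files) for each tested gene of the 9 crosslinking and processing enzymes (red) and of 6 lists of other collagen pathway genes (grey), with the median of each list as a black bar and the median of all genes as a dashed line. The median is 0.30 for the joint list of substrates and fibre assembly genes and 0.03 for the hydroxylases and glycosyltransferases.

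The genes whose values followed the mean of the 9 tested genes most closely over the 9 arrays, after centring in each group, were Col8a1, Adat3, Rimkla, Msh5 and Adcy7. They are the highest of 22001 genes ranked, so their correlations describe the choice and carry no test. The 9 genes themselves did not all follow this mean, though each enters it. Loxl1, Loxl2, Loxl3, Pcolce and Bmp1 had r of 0.64 to 0.87 with it. Pcolce2, P4ha1 and Plod2 had 0.31, 0.39 and 0.30, and Lox had -0.09. Pearson's r was 0.97 for Col8a1, a short-chain collagen gene in the fibroblast list, with Spearman's rho 0.97, and 0.94 for the adenylyl cyclase gene Adcy7, with rho 0.97. Without aldosterone 2 and control 1, the arrays farthest from the median, r was 0.93 and 0.86. In the value table, whose hearts are largely the same, r was 0.81 and 0.89 for these genes, against 0.43 for Adat3, 0.49 for Msh5 and 0.64 for Rimkla. Col8a1 differed by 0.55 (SE 0.15; limma adjusted p = 0.489) and Adcy7 by 0.62 (SE 0.11; limma adjusted p = 0.137) between the groups.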

How the data were processed

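The scanner files, as deposited, give spot intensity values for 9 arrays. Per the file headers they come from Feature Extraction, version 10.7.3.1 per the submitters' processing notes. They also hold the deposited log10 ratio of red over green, converted here to log2 for an alternative. A log2 ratio for each probe and heart stands in the table that the authors deposited, and it followed the scanner's ratio with Pearson r of 0.996 to 1.00 over probes and a slope of 1.00. Scale and direction were therefore known and column medians were -0.00664 to 0.12. Of the probes, 82.7% to 86.6% lay within 0.001 of the scanner's ratio, and what moved the others was not tested.

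RefSeq records (assembly GRCm38.p6), matched by accession, named 26581 of 39429 probes. Median signals were corrected with normexp (offset 50) and normalized within arrays by loess, in which control spots had no weight, with limma 3.58.1 in R 4.3.3. Local backgrounds over 20 units from an array's median were replaced by it (0 to 85 Cy5 spots an array), because on control 1 backgrounds of up to 11739.5 units set the correction. Outlier spots (1667) were left out, spots of a probe averaged, probes kept if well above background in Cy5 on at least 4 arrays, and each gene taken at its brightest kept probe.

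Groups were compared with limma (two-sided, Benjamini-Hochberg over 22048 genes or transcripts, threshold 0.05), and the fit was checked on simulated data. The number of arrays limits the precision. Members, lists and tests were chosen with earlier results of these data known. All genes of the list were named, and 4 of smallest p from each further list. Same-numbered hearts deviated together with r of -0.34 to 0.35 over genes, so the replicate numbers were not taken as pairs.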

Additional observations from a re-analysis of the deposited data

How the results depend on the processing

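Over 26 alternatives in the scanner files (24 for Lox, which some filters leave out) and 14 in the value table, 0 of the 9 genes was called in any. Loxl1 (0.38 to 0.63), Loxl2 (0.39 to 0.69), Pcolce (0.33 to 0.44), Pcolce2 (0.28 to 0.42) and Bmp1 (0.15 to 0.29) kept their sign in all 26, and in the 14 of the value table as well. For genes near 0 the sign turned and the cause was not tested. Lox was -0.062 without background correction, -0.30 in the scanner's processed ratio, -0.37 in the value table and -0.00415 in the Cy5 channel alone. Loxl3 was 0.023 without background correction, 0.064 in the processed ratio, 0.053 in the value table, 0.021 with median centring and 0.089 in Cy5 alone. P4ha1 was 0.040 with local backgrounds as deposited, 0.00259 with the set of hearts as a block and 0.037 with array weights, and 0.069 in the value table with the set as a block, an alternative chosen after seeing the data. Plod2 was -0.038 in the processed ratio and -0.10 in the value table. Leaving out 1 heart at a time gave ranges of -0.026 to 0.098 for Lox, -0.083 to 0.00813 for Loxl3 and -0.13 to 0.13 for P4ha1 in the scanner files, and of -0.031 to 0.15 for Loxl3 and -0.13 to 0.14 for P4ha1 in the value table.

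Counts over all genes moved more. From 0 calls (1367 at an unadjusted p under 0.05), the scanner files gave 11 with the processed ratio, 37 in the value table, 2 in Cy5 alone, 8 with the set as a block, 3 with array weights and 0 to 11 without 1 heart (7, 2, 11 and 1 without control 3, 4 or 5 or aldosterone 1). The value table's 37 calls became 8 without a filter on dim probes, 12 with the set as a block and 2 to 50 without 1 heart, over 1.5 times fewer without any one heart except control 3 or 5. With the replicate block, 2 genes were called in the scanner files and none (0) in the deposited ratios, and no call of the 9 genes changed, as Loxl1 was then 0.52 and 0.49. Under either source only 2 hearts (of 8 and of 10) correlated best with the heart of the same number in the other group. Aquantile normalization acts on brightness and left the ratios as they were. Signal near background limits Lox, whose difference is poorly determined, and Loxl4, which was not tested.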
